A study of Mus musculus with 8 samples.

Results

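The genes described here are the SR proteins, the heterogeneous nuclear ribonucleoproteins (hnRNPs) and the other regulators of pre-mRNA splicing, measured by RNA-seq in whole testis of Iqch mutant and wild-type mice. They were picked by symbol from the protein-coding genes, as every Srsf, Srrm, Hnrnp, Rbm, Ptbp, Celf, Mbnl, Tra2, Esrp and U2af gene. The annotation holds 98 such genes, of which 90 were among the 17127 genes analysed, and all 90 were tested. The other 8, Rbm8a2, Srsf12, Srrm3, U2af1l4, Rbm42, Rbm24, Rbm41 and Rbm31y, were not analysed here.

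The wild-type group (genotype WT in the labels) had 4 libraries of adult testis, and the mutant group (Iqch-/-) had 3, from mutants 1, 2 and 4, with mutant 3 not analysed here. All were males aged 4 months. The mutants were homozygous for frameshift deletions in exon 19 of Iqch, made with CRISPR-Cas9 in B6CBAF1 zygotes and kept as the mu5 and mu7 lines. The study shows RNA-seq coverage of Iqch for the mu7 line, and the labels name no line for a library. Iqch encodes an IQ motif protein of the testis, and the study asked whether its loss alters the expression and splicing of RNA during spermatogenesis.

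Splicing regulators decide which exons and splice sites of a pre-mRNA are used. SR proteins bind exonic enhancers and promote the use of nearby splice sites, whereas hnRNPs often repress them, and the balance of both types shapes the mRNA. The testis is known for its large number of alternatively spliced transcripts, and germ cells carry regulators of their own, such as Rbmxl2 and Ptbp2.

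Levels are given as CPM (a gene's reads for each 1000000 reads in the library), and a higher or lower gene is one called by limma at a Benjamini-Hochberg false discovery rate (FDR) below 0.01 over all 17126 tested genes. All values of a library were multiples of 1 step of 0.0266 to 0.0312 CPM, and with that step taken as 1 read, which could not be checked against read counts, the libraries held 32064384 to 37551057 reads on the genes analysed. Iqch itself was at 208 ± 11.3 CPM in wild-type testes (SD, n = 4) and at 67.3 ± 2.25 CPM in mutants (SD, n = 3). Its log2 fold change was -1.63 (SE 0.05, adjusted p = 1.92e-10), and the exact permutation test gave p = 0.0286, the smallest that the 35 splits of these libraries allow.

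More splicing regulators were higher than lower in the mutant. Of the 90 genes, 48 (53.3%) were higher, 2 (2.22%) were lower and 40 were not called. Among all tested genes 36.3% were higher and 14.2% lower, and among protein-coding genes 41.5% were higher and 12.7% lower. Counting libraries instead, all mutant values lay above all wild-type values in 58 genes (64.4%, against 42.8% of all genes) and below them in 3 (3.33%, against 19.5%), and the remaining 29 overlapped. Most of the changes were small. Of the 50 genes called, 39 had a log2 change smaller than 0.5, and 4 (Esrp2, Srrm4, Mbnl1 and Mbnl2) changed by more than 2-fold. Of the 6212 higher and 2428 lower genes among all 17126 tested, 3913 had a log2 change smaller than 0.5. More than 2-fold changes were seen in 1734 of the 17126 genes. Esrp2 and Srrm4 reached the minimum of 2.2 CPM for testing only in the mutant libraries, which favours a rise. The median log2 fold change of the 90 genes was 0.24, against 0.12 for all genes and 0.18 for protein-coding genes. Together these genes took 7058 to 7264 CPM in the wild-type libraries and 7868 to 8489 CPM in the mutant libraries.

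The scaling of the libraries bore on these counts. The deposited CPM sum to the same total in each library, and median-of-ratios size factors, which ran from 0.957 to 0.964 in wild-type and from 1.04 to 1.07 in mutant libraries, moved the median of all genes down by 0.13 on the log2 scale. After this scaling 26 splicing regulators were higher (28.9%) and 8 were lower (8.89%), beside 27% higher and 25.1% lower among all genes and 31.1% and 23.6% among protein-coding genes. The share of higher genes was thus near the background, and the share of lower genes stayed below it. The 26 higher genes had all been higher in the CPM, and none of the 90 genes was called in opposite directions under the 15 settings tried. Values after size factors are given below as scaled values.

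**Figure D1:**
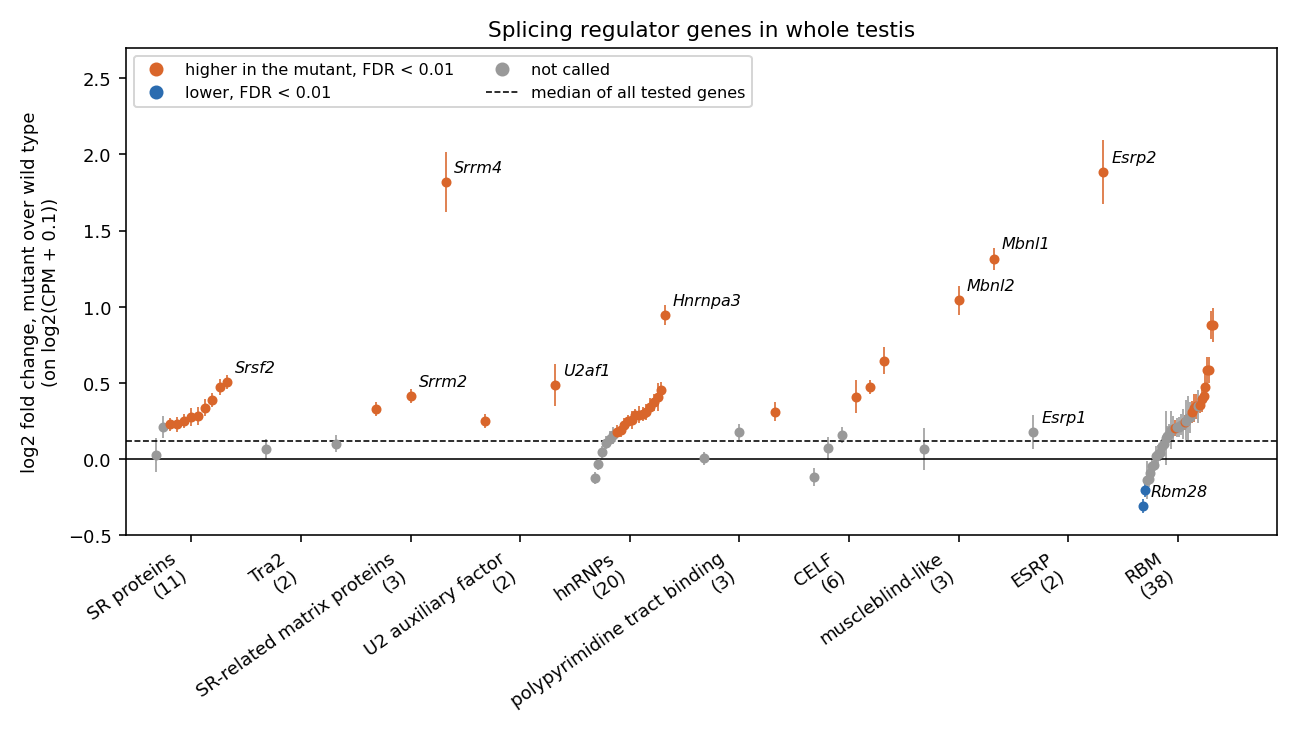
Log2 fold change (mutant over wild type, on log2(CPM + 0.1)) of each of the 90 splicing regulators, grouped by family with the number of genes in parentheses. Points are estimates with their standard error, orange for higher, blue for lower and grey for not called, and the dashed line is the median of all tested genes (0.12). Most families sit a little above that line, and Esrp2, Srrm4, Mbnl1 and Mbnl2 stand over 1.

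Marker genes of the testis cell types differed between the groups, which is a limit on every value below. In whole testis, a gene can move with the share of a cell type or with the RNA that each cell holds, and these cannot be told apart. In germ cells of older mice, the study's flow cytometry found a smaller proportion of haploid cells in mutants. The proportions of diploid and tetraploid cells were not affected, although all of these cells fell in number. All 7 markers of elongating spermatids (Prm1, Prm2, Tnp1 and others) were lower, with a summed level of 21462 to 22709 CPM in wild-type and 13598 to 15665 CPM in mutant libraries. Of the 6 round spermatid markers 5 were lower, and of 8 spermatocyte markers 1 was higher and 1 lower. All 6 Sertoli cell markers were higher (963 to 1045 CPM against 2031 to 2159.9 CPM), as were 5 of 6 Leydig cell markers (997 to 1202 CPM against 4214 to 4393 CPM), all 7 macrophage markers (68.3 to 74.2 CPM against 170.5 to 197 CPM), 4 of 7 spermatogonial and 2 of 5 endothelial markers. None of 3 peritubular myoid cell markers was called. After size factors 1 of 7 spermatogonial and 4 of 6 Sertoli cell markers were higher, 3 of 8 spermatocyte and all 6 round spermatid markers were lower with none higher, and of the endothelial markers 2 were higher and 1, Vwf (18.3 to 15.8 CPM), was lower. No marker gene analysed was at 0 in any library. The part of these cell types in the changes of splicing regulators was not tested.

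**Figure D2:**
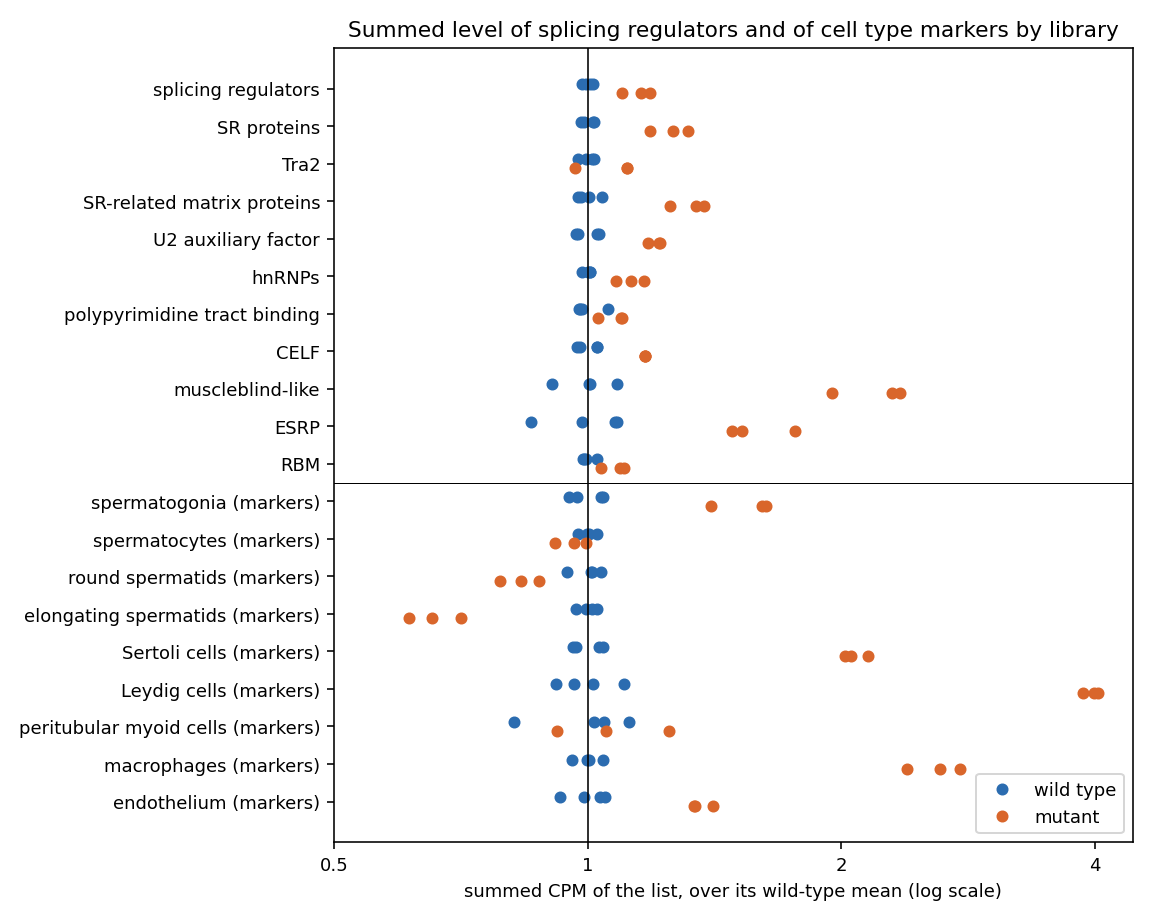
Summed CPM of the splicing regulators, of each of their families and of the marker genes of 9 cell types in each library, divided by the mean of the 4 wild-type libraries (log axis). Blue points are wild-type and orange points mutant libraries. The mutant sums of the splicing regulators and of each family lie above all wild-type sums, except those of Tra2 and the polypyrimidine tract binding genes. Those of elongating spermatid markers lie below, and those of Leydig cell markers lie near 4. The sums are of CPM without size factors.

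Srrm2 and Esrp1 encode proteins that the study stained beside IQCH in the nucleus, and U2af1 encodes the speckle protein it stained beside each of those. In mutant testis the study still found SRRM2 together with U2AF1, whereas ESRP1 was no longer found with it. The RNA levels below do not measure where these proteins lie. Srrm2 (ENSMUSG00000039218, chromosome 17, 24009506 to 24043715, plus strand, GRCm39) encodes a large scaffold protein of nuclear speckles, where splicing factors gather. Its level was 301.6, 305, 309.7 and 322 CPM in wild type 1 to 4 and 388, 417 and 434 CPM in mutants 1, 2 and 4. Every mutant library lay above every wild-type library, and Srrm2 rose by 0.41 on the log2 scale (SE 0.04, adjusted p = 5.40e-06; scaled value 0.28, adjusted p = 0.00013).

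Esrp1 (ENSMUSG00000040728, chromosome 4, 11331933 to 11386875, minus strand) encodes an epithelial splicing regulator. Its level was 5.86, 5.71, 6.97 and 6.98 CPM in wild-type and 7.13, 6.83 and 7.65 CPM in mutant libraries. The groups overlapped, and Esrp1 was not called (log2 fold change 0.18, 95% interval -0.06 to 0.41, adjusted p = 0.177).

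U2af1 (ENSMUSG00000061613, chromosome 17, 31866036 to 31878236, minus strand) encodes the small subunit of the U2 auxiliary factor, which reads the AG at the 3′ splice site. Its level was 5.30, 3.61, 4.53 and 4.47 CPM in wild-type and 6.78, 6.58 and 5.50 CPM in mutant libraries. The mutant libraries lay above the wild-type ones by a small margin, from 5.30 to 5.50 CPM, and U2af1 rose by 0.49 (SE 0.14, adjusted p = 0.0084). The scaled value of 0.35 was not called (adjusted p = 0.0416), and the call was also lost without wild type 2, 3 or 4 (0.39, 0.50 and 0.49) and without mutant 1 or 2 (0.43 and 0.45). U2af2, the large subunit, which binds the polypyrimidine tract, was at 62.3 ± 1.80 CPM (SD, n = 4) and 74.1 ± 1.99 CPM (SD, n = 3). It rose by 0.25 (adjusted p = 0.000463), with a scaled value of 0.12 that was not called (adjusted p = 0.0411).

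**Figure D3:**
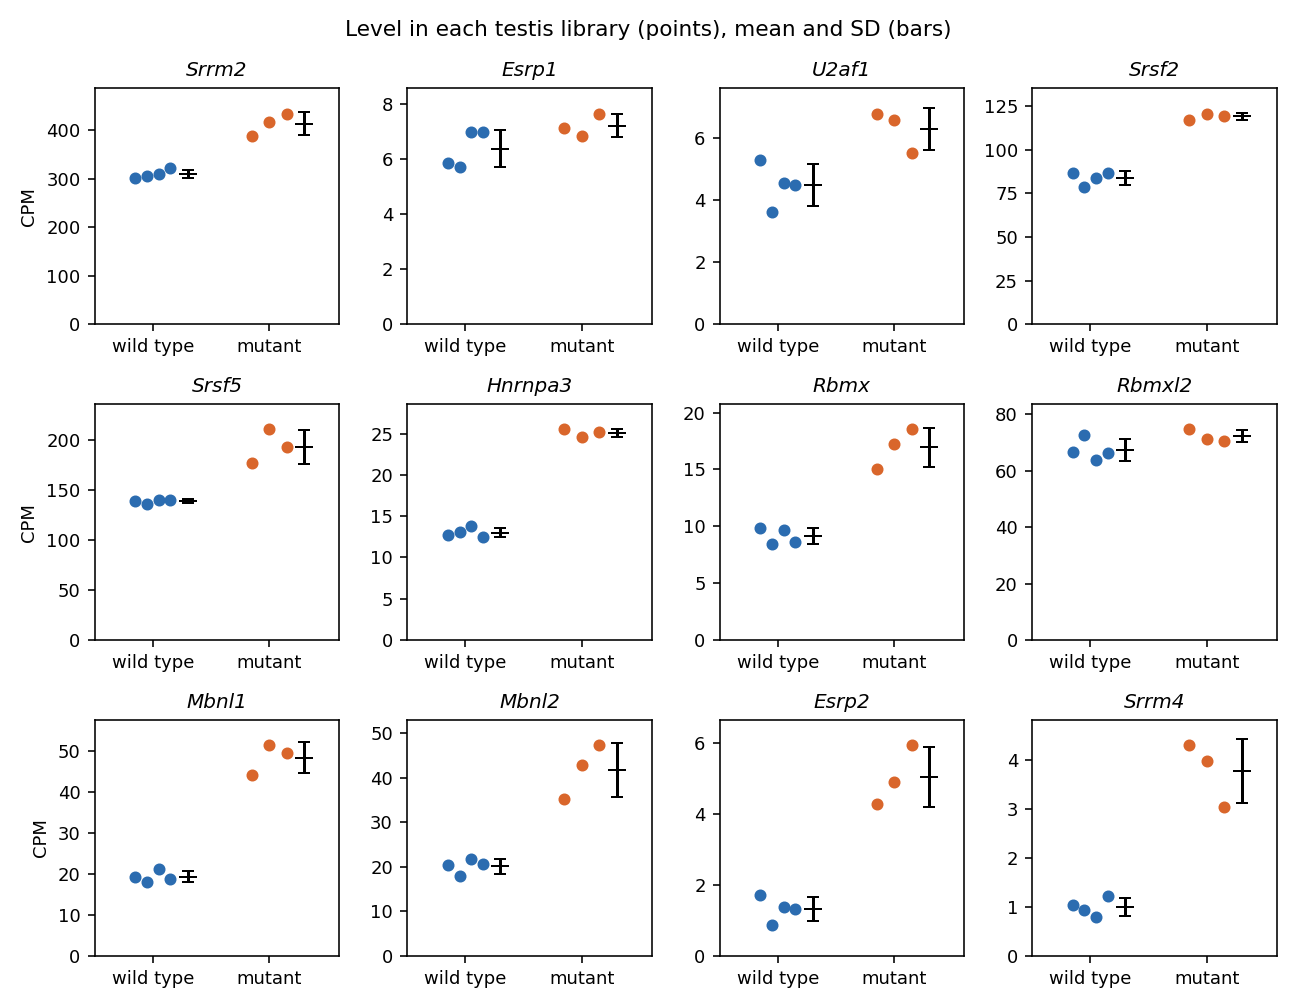
CPM of 12 splicing regulators in each library, from 0, with wild-type libraries in blue, mutant libraries in orange, and the mean and SD of each group as black bars. Esrp1 and Rbmxl2 overlap between the groups, and in the other 10 genes every mutant point lies above all wild-type points.

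Among the 11 SR proteins 9 were higher (81.8%, beside 36.3% of all genes) and none lower, with a median log2 fold change of 0.28 (scaled 0.14). After size factors 4 remained called (36.4%), namely Srsf2, Srsf5, Srsf6 and Srsf9. This scaled share was near the 27% of all genes and the 31.1% of protein-coding genes. Summed, the SR proteins took 929, 937, 961 and 963 CPM in wild-type and 1123, 1245 and 1196 CPM in mutant libraries. Srsf2, known as SC35, is an SR protein of the nuclear speckles. It was at 86.8, 78.5, 84.0 and 86.5 CPM in wild-type and 117, 121 and 119.7 CPM in mutant libraries, with no overlap, and rose by 0.51 (SE 0.05, adjusted p = 1.36e-06; scaled 0.37). Srsf2 shares 67.6% of its exon bases with Mettl23 and Mfsd11, which were not called (log2 fold changes of -0.10 and 0.00).

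Srsf5 had the highest level per kb of exon among the SR proteins, 24.8 CPM per kb in wild type and 34.5 in mutants. Its libraries were at 139, 136, 139.9 and 140.3 CPM in wild type and at 177, 211 and 193 CPM in mutants. The spread was thus wider among mutants (SD 17.0 against 1.73 CPM), yet no mutant library reached down to the wild-type range, and Srsf5 rose by 0.47 (SE 0.05, adjusted p = 8.17e-06; scaled 0.34). Srsf6 was at 111, 110.5, 116 and 116 CPM in wild-type and 143, 155 and 147 CPM in mutant libraries, and rose by 0.39 (SE 0.04, adjusted p = 7.77e-06; scaled 0.25). Srsf9 rose by 0.34 (adjusted p = 0.000176), and shares 46.3% of its exon bases with Gatc, which was not called (0.18, adjusted p = 0.0313).

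The remaining called SR proteins changed by less. Srsf1, the first member of the family to be described, went from 139 ± 3.53 CPM (SD, n = 4) to 165 ± 8.60 CPM (SD, n = 3) and rose by 0.25 (adjusted p = 0.000451). Srsf3, Srsf7, Srsf10 and Srsf11 rose by 0.23 to 0.28. None of these 5 genes was called after size factors, where Srsf1 stood at 0.11 (adjusted p = 0.038), and Srsf11 was also not called without mutant 2 (0.19). Srsf4 (0.21, adjusted p = 0.0252) and Srsf19 (0.03, adjusted p = 0.856) were not called, although Srsf4 was higher without wild type 4 (0.27, adjusted p = 0.00338).

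Tra2a and Tra2b encode SR-like proteins that bind GAA-rich exonic enhancers. Neither was called, and their sign depended on the scaling. Tra2a was at 93.3 ± 1.66 CPM in wild type (SD, n = 4) and at 100.3 ± 7.76 CPM in mutants (SD, n = 3), with a log2 fold change of 0.10 that became -0.03 after size factors. Tra2b was at 58.1 ± 2.34 and 60.9 ± 6.0 CPM, with 0.06 that became -0.07.

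All 3 SR-related matrix genes analysed were higher, and all 3 remained so after size factors. Of all genes 36.3% were higher, and 27% after size factors. Srrm1, a coactivator of splicing, rose by 0.33 (adjusted p = 5.13e-05; scaled value 0.19), from 81.0 ± 2.54 CPM (SD, n = 4) to 101.9 ± 3.93 CPM (SD, n = 3). Srrm4 (ENSMUSG00000063919, chromosome 5, 116577334 to 116729924, minus strand) is known for the inclusion of neuronal microexons. Its libraries were at 1.05, 0.93, 0.79 and 1.23 CPM in wild type and at 4.31, 3.99 and 3.04 CPM in mutants. Only the mutant libraries reached the minimum of 2.2 CPM for testing, so a rise was favoured by the filter. Each mutant library lay far above the highest wild-type library, and Srrm4 rose by 1.82 on the log2 scale (SE 0.20, adjusted p = 5.27e-06; scaled 1.69). Per kb of exon it had the lowest wild-type level of all 90 genes, 0.114 CPM per kb, and it still ranked low in mutants, at 0.433.

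The hnRNPs were the most abundant family, with 3313 to 3387 CPM in wild-type and 3634 to 3927 CPM in mutant libraries. Of 20 genes, 14 were higher (70%, beside 36.3% of all genes) and none lower, with a median of 0.25. After size factors 7 were higher (35%) and 2 (10%), Hnrnpul1 and Hnrnpf, were lower. This scaled share of higher genes was near the 27% of all genes and the 31.1% of protein-coding genes. The scaled share of lower genes was below the 25.1% of all genes and the 23.6% of protein-coding genes. Hnrnpu, which binds RNA and chromatin, had the highest level per kb of all 90 genes, 57.5 CPM per kb in wild type. It was not called (log2 fold change 0.11, adjusted p = 0.0338, scaled -0.03). Of the 5 highest levels per kb in wild type 4 were those of hnRNPs, Hnrnpu, Hnrnpa2b1 (42.9 CPM per kb), Hnrnph1 (42.7) and Hnrnpa0 (39.9), and the other was Rbmxl2. The 3 lowest were those of Srrm4, Esrp2 (0.167 CPM per kb) and Mbnl3 (0.214).

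Hnrnpa3 (ENSMUSG00000059005, chromosome 2, 75489605 to 75499751, plus strand) changed most in this family. It was at 12.7, 13.1, 13.8 and 12.5 CPM in wild-type and 25.5, 24.5 and 25.2 CPM in mutant libraries. Both groups were narrow and far apart, and Hnrnpa3 rose by 0.94 (SE 0.07, adjusted p = 1.32e-07; scaled 0.81). Its relatives Hnrnpa1, Hnrnpa2b1 and Hnrnpa0 rose by 0.37, 0.31 and 0.29. The Hnrnpa genes have many processed copies in the genome, and reads shared with such copies make their counts uncertain.

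Hnrnpa2b1 was at 456, 433, 466 and 432 CPM in wild-type and 514, 595 and 554 CPM in mutant libraries, and 45.6% of its exon bases are shared with other genes, among them Cbx3, which was not called (0.14, adjusted p = 0.28). Hnrnpd, also called AUF1, rose by 0.34 (adjusted p = 0.000128), and Hnrnpk and Hnrnpul2 rose by 0.30 and 0.46. Hnrnpul2 shares 25.0% of its exon bases with other genes, among them Ttc9c, which also rose (0.54, adjusted p = 0.000118), and Hnrnpab shares 35.5% with Phykpl, which rose by 0.68 (adjusted p = 0.000261). The part of shared reads in these values was not tested. Those 7 genes, Hnrnpa0, Hnrnpa1, Hnrnpa2b1, Hnrnpa3, Hnrnpd, Hnrnpk and Hnrnpul2, were higher under all 15 settings. The share of all genes that were so was not computed. Hnrnph1, Hnrnpr, Hnrnpl, Hnrnpab, Hnrnpc, Hnrnpdl and Hnrnph2 were higher in the CPM by 0.18 to 0.41 and were not called after size factors. Hnrnph1 and Hnrnpr also lost their calls without mutant 2 (0.14 and 0.17), mutant 4 (0.19 and 0.17) or wild type 2 (0.19 and 0.17), Hnrnph2 without mutant 2 (0.35), and Hnrnpc without mutant 2 or 4 (0.21 and 0.24).

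Of the 3 polypyrimidine tract binding genes 1, Ptbp3, was higher (33.3%, beside 36.3% of all genes), and none was called after size factors. Ptbp1, found in most cells, was at 82.1, 83.0, 92.4 and 81.5 CPM in wild-type and 93.2, 94.9 and 99.3 CPM in mutant libraries, and was not called (0.18, adjusted p = 0.0106), although it was called without wild type 3 (0.22, adjusted p = 0.00142). Ptbp2, the paralog used in neurons and germ cells, was at 130.1, 130.0, 138 and 132 CPM in wild-type and 127, 137 and 135 CPM in mutant libraries. Its libraries overlapped, with a log2 fold change of 0.00 (95% interval -0.09 to 0.10) and a scaled value of -0.13 (adjusted p = 0.0172). Ptbp3 rose by 0.31 (adjusted p = 0.000884), with a scaled value of 0.18 that was not called (adjusted p = 0.0202).

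Of the 6 CELF genes, which encode proteins binding GU-rich elements, 3 were higher (50%, beside 36.3% of all genes). After size factors 2 were higher (33.3%) and 1 lower (16.7%), beside 27% and 25.1% of all genes. Celf1 was at 61.7, 59.6, 62.5 and 61.9 CPM in wild-type and 83.8, 87.8 and 84.3 CPM in mutant libraries and rose by 0.47 (SE 0.04, adjusted p = 1.58e-06; scaled 0.34). Celf2 was at 23.3, 24.6, 28.8 and 27.7 CPM in wild-type and 36.7, 45.6 and 40.4 CPM in mutant libraries and rose by 0.65 (SE 0.09, adjusted p = 3.63e-05; scaled 0.51). Neither gene overlapped between the groups. Celf4 rose by 0.41 from a low level (6.34 ± 0.42 CPM, SD, n = 4) and was not called after size factors (0.28, adjusted p = 0.0333), without wild type 1 or 2 (0.37 and 0.39) or without mutant 2 or 4 (0.33 and 0.40). Celf3 was not called in the CPM (-0.12, adjusted p = 0.0955) and was lower after size factors (-0.26, adjusted p = 0.0034).

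The muscleblind-like proteins bind YGCY motifs and are known for switching fetal to adult splicing. Mbnl1 (ENSMUSG00000027763, chromosome 3, 60380102 to 60537183, plus strand) was at 19.2, 18.1, 21.3 and 18.9 CPM in wild-type and 44.2, 51.4 and 49.5 CPM in mutant libraries. All mutants were at more than the highest wild-type level by a wide margin, and Mbnl1 rose by 1.32 (SE 0.07, adjusted p = 1.93e-08; scaled 1.18), the lowest adjusted p of the 90 genes. Mbnl2 (ENSMUSG00000022139, chromosome 14, 120512932 to 120669110, plus strand) was at 20.3, 17.9, 21.9 and 20.6 CPM in wild-type and 35.3, 42.9 and 47.3 CPM in mutant libraries. It rose by 1.04 (SE 0.10, adjusted p = 1.26e-06; scaled 0.91). Mbnl3, on the X chromosome, stood at 2.82 ± 0.28 CPM (SD, n = 4) and 2.94 ± 0.13 CPM (SD, n = 3) and was not called (0.07, scaled -0.06).

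Esrp2 (ENSMUSG00000084128, chromosome 8, 106853859 to 106864027, minus strand), the paralog of Esrp1, had the largest fold change of the 90 genes. No wild-type library reached the minimum of 2.2 CPM for testing, so Esrp2 was tested only because of its mutant level. Its libraries were at 1.71, 0.87, 1.37 and 1.30 CPM in wild type and at 4.28, 4.90 and 5.93 CPM in mutants, and it rose by 1.88 (SE 0.21, adjusted p = 6.75e-06; scaled 1.75). Esrp2 shares 47.8% of its exon bases with Nfatc3 and 1810019D21Rik, none of them on its own strand. Nfatc3 also rose, from 28.7 ± 1.44 CPM (SD, n = 4) to 41.5 ± 2.21 CPM (SD, n = 3), by 0.53 (adjusted p = 9.64e-06). The strand setting of the counting is not given in the sources used here, so reads of these genes may have been shared, and their part in the Esrp2 value was not tested.

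The RBM genes are a mixed group that shares the name of the RNA recognition motif, and their functions range from the spliceosome to RNA decay and translation. Of 38 genes, 13 were higher and 2 lower (median 0.21, scaled 0.08), and after size factors 7 were higher and 5 lower. The share of higher RBM genes, 34.2%, was not above that of all genes (36.3%), and after size factors it was 18.4%, below the 27% of all genes. The share of lower RBM genes was 5.26%, beside 14.2% of all genes. After size factors it was 13.2%, beside 25.1% of all genes. Rbm3, a cold-inducible protein, was at 5.09, 4.19, 5.42 and 5.06 CPM in wild-type and 9.85, 8.42 and 9.21 CPM in mutant libraries and rose by 0.88 (SE 0.11, adjusted p = 2.37e-05; scaled 0.75). Rbm22, a component of the active spliceosome, was at 12.7, 12.4, 13.2 and 14.7 CPM in wild-type and 18.2, 20.4 and 21.3 CPM in mutant libraries and rose by 0.58 (SE 0.08, adjusted p = 5.64e-05; scaled 0.45). Rbm3 and Rbm22 did not overlap between the groups.

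Rbm17, also called SPF45, was at 41.8, 42.0, 41.6 and 39.0 CPM in wild-type and 51.5, 52.7 and 53.1 CPM in mutant libraries and rose by 0.35 (adjusted p = 5.83e-05). Rbm39, which is related to U2af2, rose by 0.42 (133 ± 4.13 CPM, n = 4, to 178 ± 11.9 CPM, n = 3, SD; adjusted p = 1.36e-05). Rbm45 rose by 0.58 (adjusted p = 9.07e-05), and Rbm34, whose function is not well known, by 0.47 (adjusted p = 0.00127). These genes, with Rbm3, Rbm22 and Rbmx, were the 7 RBM genes higher under all 15 settings. How many of all genes were higher in every setting was not counted. The study had named Rbm22, Rbm17, Rbmx, Srsf6 and Srsf2 from these samples, so their direction here is not independent evidence. It also reported altered splicing of Rbm34 and isoform switches in Mbnl2 and Tra2a, which the gene levels given here do not measure. Rbm5, which is needed for splicing in spermatids, rose by 0.24 (120.2 ± 5.36 CPM, n = 4, to 142 ± 7.05 CPM, n = 3, SD; adjusted p = 0.00102), with a scaled value of 0.11 that was not called (adjusted p = 0.0697).

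Rbm10 on the X chromosome is given with the other X-linked genes below. The other 4 higher RBM genes, Rbm38, Rbm18, Rbm43 and Rbm25, rose by 0.20 to 0.39, and none of them was called after size factors. Rbm25 also lost its call without wild type 1 or 2 (0.18 and 0.19) or mutant 2 or 4 (0.19 and 0.18), Rbm18 without mutant 2 (0.29) and Rbm43 without mutant 4 (0.26). The 23 RBM genes not called had log2 fold changes from -0.14 (Rbm11) to 0.35 (Rbm12b2). Among them was Rbm46, a germ cell protein needed for meiosis, at 48.3 ± 2.12 CPM in wild type (SD, n = 4) and 47.0 ± 3.43 CPM in mutants (SD, n = 3), with a log2 fold change of -0.04 (adjusted p = 0.588). Rbm4b, Rbm27 and Rbm7 were not called in the CPM (-0.13, -0.09 and -0.05) and were lower after size factors (-0.27, -0.22 and -0.18).

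The 2 lower genes were Rbm28 and Rbm44. Rbm28 (ENSMUSG00000029701, chromosome 6, 29123574 to 29165013, minus strand), a nucleolar protein associated with spliceosomal small nuclear RNAs, was at 146, 148, 153 and 156 CPM in wild-type and 123, 128 and 115 CPM in mutant libraries. It fell by 0.31 on the log2 scale (SE 0.05, adjusted p = 9.96e-05), with a scaled value of -0.44, and was lower under all 15 settings. Rbm44, a protein of the intercellular bridges of germ cells, was at 87.9, 92.0, 96.5 and 93.6 CPM in wild-type and 80.0, 82.6 and 78.0 CPM in mutant libraries. It fell by 0.21 (SE 0.05, adjusted p = 0.00205), with a scaled value of -0.34. Its call was lost without mutant 4 (-0.19, adjusted p = 0.0142), which left Rbm28 as the 1 lower gene.

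Of the 7 splicing regulators on the X chromosome, which is silenced in spermatocytes during meiosis, Rbmx, Rbm3, Hnrnph2 and Rbm10 were higher, and Rbmx2, Mbnl3 and Srsf19 were not called. The Rbm10 call (0.34, adjusted p = 0.00742) was lost after size factors (0.20, adjusted p = 0.0719) and without any 1 of mutants 1, 2 and 4 or wild types 2, 3 and 4, with values from 0.26 to 0.38. Over the 7 genes, the median log2 fold change was 0.34, against 0.35 for all 625 X-linked genes, of which 51.2% were higher and 7.52% lower. After size factors 2 of the 7, Rbmx and Rbm3, were higher (28.6%, against 43.7% of all X-linked genes). Rbmx encodes hnRNP G and was at 9.87, 8.48, 9.65 and 8.60 CPM in wild-type and 15.1, 17.2 and 18.5 CPM in mutant libraries. It rose by 0.88 (SE 0.09, adjusted p = 4.96e-06; scaled 0.75). Rbmxl2, its autosomal retrogene expressed in meiotic and later germ cells, was at 66.6, 72.7, 63.6 and 66.3 CPM in wild-type and 74.6, 71.4 and 70.5 CPM in mutant libraries. The Rbmxl2 libraries overlapped, and the gene was not called (0.10, adjusted p = 0.116, scaled -0.03). Per kb of exon Rbmxl2 was the second of the 90 genes, at 45.7 CPM per kb in wild type. Rbmx, Rbmxl1 and Rbmxl2 are similar in sequence, so the counting could divide their reads.

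Ratios of related genes within a library take out the scaling between libraries, save for the pseudocount of 0.1 added to each CPM. The log2 ratio of CPM + 0.1 was compared for 18 pairs with the two-sided exact permutation test over the 35 splits, in which the smallest p is 0.0286, and no pair had an adjusted p below 0.05. Of the 18 pairs, 8 did not overlap between the groups. Pairs of other genes were not counted in this way, so this number has no background. Of all single genes, 42.8% lay higher and 19.5% lower in the mutant without overlap. The ratio of Rbmx to Rbmxl2 was 0.137 in wild type and 0.235 in mutants, with log2 ratios of -2.74, -3.09, -2.71 and -2.93 against -2.30, -2.05 and -1.92 (difference 0.78, exact p = 0.0286, adjusted p = 0.0735). Mbnl1 over Mbnl3 went from 6.68 to 15.9, with log2 ratios of 2.64, 2.82, 2.93 and 2.57 against 3.82, 4.06 and 4.10 (difference 1.25). Esrp1 over Esrp2 went from 4.67 to 1.43, with log2 ratios of 1.72, 2.58, 2.27 and 2.33 against 0.72, 0.47 and 0.36 (difference -1.71). Esrp2 was among the tested genes only because of its mutant level.

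The other separated pairs moved by less. The differences were 0.27 for Mbnl1 over Mbnl2, 0.17 for Ptbp1 over Ptbp2, 0.07 for Hnrnpr over Hnrnpu, -0.08 for Srrm1 over Srrm2 and -0.13 for Ptbp1 over Ptbp3. The exact p was 0.0286 (adjusted p = 0.0735) for the first 4 of these, as for the pairs above, and 0.0571 (adjusted p = 0.129) for Ptbp1 over Ptbp3. The 10 pairs that overlapped were those within the SR proteins (Srsf1/Srsf9, Srsf2/Srsf6, Srsf4/Srsf6), Tra2a/Tra2b, U2af1/U2af2, Celf1/Celf2, Rbm5/Rbm10, Hnrnpa1/Hnrnpa2b1, Hnrnpd/Hnrnpdl and Hnrnph1/Hnrnph2, with differences between -0.22 and 0.24.

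**Figure D4:**
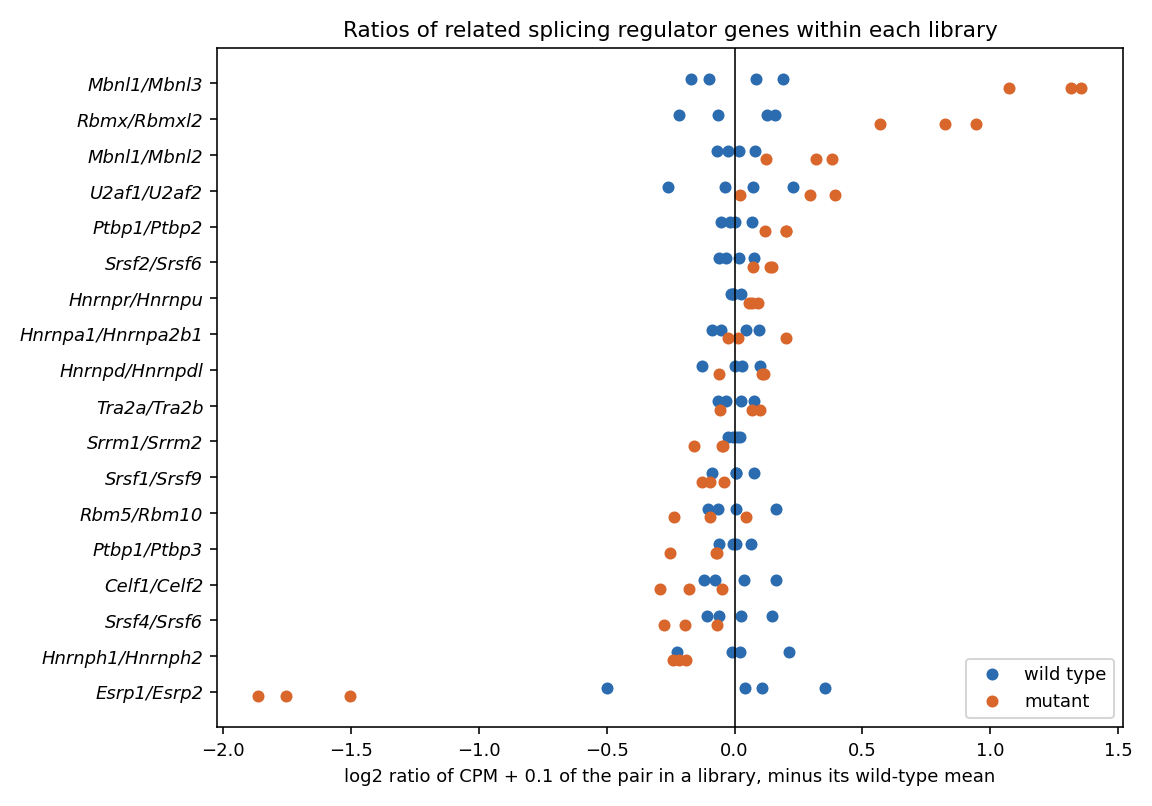
Log2 ratio of CPM + 0.1 of 2 related splicing regulators in each library, minus the mean of that ratio in wild type, for 18 pairs. Blue points are the 4 wild-type and orange points the 3 mutant libraries. Mbnl1/Mbnl3 and Rbmx/Rbmxl2 lie to the right in every mutant, Esrp1/Esrp2 lies far to the left, and most pairs stay within 0.3 of 0.

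Promoter sequences are shown for genes that share the letters of a motif and differed in their change. The 250 bases before the canonical start of each gene (GENCODE M39 on GRCm39) were searched on both strands for the cAMP response element (CRE, TGACGTCA, bound by CREB and CREM, CREM being a regulator of spermatid genes) and an ETS motif (CCGGAAGT), neither of which contains the other. The CRE stood in 2 of 90 promoters of splicing regulators (2.22%) and in 2.03% of 13771 promoters of tested protein-coding genes. The ETS motif stood in 4 of 90 (4.44%) and in 3.70% of all. The sequences below, read on the gene's strand with the motif in capitals, are the CRE matches of Rbm3 (chrX:8012232-8012261, minus strand) and Celf6 (chr9:59485376-59485405, plus strand) and both ETS matches of Srsf5 (chr12:80992239-80992268 and chr12:80992171-80992200, plus strand).
Rbm3 CRE: aaagggagagaTGACGTCAaaaacactgaa
Celf6 CRE: ctgctagctgtcTGACGTCActaagctcgg
Srsf5 ETS, nearer the start: ctggcaccgccCCGGAAGTgacgccaggac
Srsf5 ETS, farther from the start: gccctactagaACTTCCGGctcccaggaac

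Rbm3 rose by 0.88, whereas Celf6, with the same CRE letters, was not called (16.7 ± 1.07 CPM, n = 4, and 17.5 ± 1.23 CPM, n = 3, SD; log2 fold change 0.07, adjusted p = 0.451). Srsf5 rose by 0.47, and Hnrnpf, Rbmx2 and Srsf4, the other genes with the ETS letters, were not called (-0.03, 0.14 and 0.21). The promoters of splicing regulators held a median of 14.5 CpG dinucleotides, against 12 for all.

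The partners of these proteins were read from a list of 56 other splicing genes, of which 51 were in the data. Of these 28 were higher (54.9%) and 2 lower, with a median log2 fold change of 0.18, and after size factors 14 were higher (27.5%) and 6 lower (11.8%). In the CPM 36.3% of all genes were higher and 14.2% lower, and the median of protein-coding genes was also 0.18. After size factors 27% of all genes were higher and 25.1% lower, so that the scaled share of higher genes was at the background. Clk1, a kinase that phosphorylates SR proteins, rose by 0.67 (36.2 to 57.8 CPM, adjusted p = 2.91e-05), whereas Srpk2, another SR protein kinase, fell by 0.29 (465 to 381 CPM, adjusted p = 2.56e-05). Srpk1 (-0.07) and Clk4 (-0.05) were not called in the CPM and were lower after size factors (-0.21 and -0.18, adjusted p = 0.000495 and 0.00571). Of the other kinases listed, Clk2 (0.32), Prpf4b (0.37) and Dyrk1a (0.33) were higher, and Clk3 (0.06) was not called. Clk2 and Prpf4b stayed higher after size factors (0.18 and 0.24), and Dyrk1a (0.20) did not. The X-linked Nono, a paraspeckle protein, rose by 0.96 (15.1 to 29.5 CPM, adjusted p = 2.41e-07), and Syncrip, also known as hnRNP Q, by 0.61 (adjusted p = 2.13e-05).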

How the data were processed

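Whole testes of mice aged 4 months were sequenced (RNA-seq), each mouse giving 1 library. Of 8 samples listed, 7 were analysed. The study considered 1 mutant an outlier and left it out after normalization. The authors trimmed reads with Trimmomatic, aligned them to GRCm39 with Subread, counted them per gene with featureCounts and used edgeR and DESeq2 for their own calls. The strand setting and annotation release are not given in the sources used here. The values the authors deposited are CPM for 17127 genes, summing to 1000000 in each library. All values (100%) were whole multiples of 1 step to within 0.01 of it, and the step was taken as 1 read.

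The fit used R 4.3.3 and limma 3.58.1, with a trended eBayes prior, on log2(CPM + 0.1). Genes needed 2.2 CPM or more in at least 2 libraries of 1 group. Benjamini-Hochberg adjustment ran over 17126 genes, with calls at an FDR of 0.01. Fold changes are on the log2(CPM + 0.1) scale, which understates changes of low genes. On simulated libraries of the mutant against wild type comparison (16536 genes fitted), 50 of 50 genes changed 2-fold, 32 of 50 changed 1.25-fold and 28 of 50 changed to 0.8 were called, with 3 false calls. The simulation gave all genes the same assumed spread and changed 200 genes, as many up as down. Far more genes were called in the data, and mostly higher, so these false calls do not measure those of the real fit. P-values and 95% intervals of fold changes measure the spread between these mice. The mutants among them are those kept after an outlier was left out, so their spread may be understated.

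GENCODE M39 on GRCm39 gave gene types, exon lengths and coordinates for 17045 genes. Levels per kb are CPM divided by the kb of merged exons. The members and the lists were chosen with earlier results of these data known. The genes named are Srrm2, Esrp1 and U2af1, members the paper names, the 10 largest rises and falls among called members without overlap, the member with the highest level per kb in each family and the members of the pairs. Others named beside a count were chosen after their values were seen. Alternatives were median-of-ratios size factors, pseudocounts of 1 and 0.01, a minimum of 5 CPM or none, sample weights, a replicate block, and leaving out 1 library at a time. The replicate numbers do not pair the mice (correlations of same-numbered libraries of 0.03, 0.01 and -0.10). Splicing itself is not analysed here. Python 3.11.15, pandas 2.3.3, SciPy 1.17.1 and matplotlib 3.10.9 were used for tables and figures.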

Additional observations from a re-analysis of the deposited data

Results flagged for a closer look

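Among Iqch and the 44 splicing regulators named by the rule, 45 genes in all, 3 had a wild-type library that stood apart from the other 3 by Dixon's test, of which chance gives about 1 in 20. Rbm17 was at 39.0 CPM in wild type 4, below 41.6 to 42.0 CPM in the others. Ptbp1 was at 92.4 CPM in wild type 3, above 81.5 to 83.0 CPM in the others. Hnrnpr was at 81.5 CPM in wild type 3, above 76.8 to 77.5 CPM in the others. Rbm17 was higher in the mutant with and without wild type 4, whereas Ptbp1 was called only without wild type 3, under the replicate block or with sample weights. Groups of 3 mutants were not tested in this way.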

How the results depend on the processing

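Size factors changed the counts most: 4294 genes were lower in all, 26 splicing regulators were higher and 8 lower, and 14 other splicing genes were higher and 6 lower. Among the 44 splicing regulators named by the rule, some signs turned under size factors. They were those of Hnrnpu (-0.027), Mbnl3 (-0.064), Ptbp2 (-0.13), Rbmxl2 (-0.033), Tra2a (-0.033) and Tra2b (-0.070), none of them called. Further signs turned outside these 44, such as those of Celf6 (-0.064), Srsf19 (-0.11) and Rbm14 (-0.10), also not called. The fit with the replicate number as a block, whose numbers do not pair the mice, gave 47 splicing regulators higher and 1 lower. When 1 library at a time was left out, the splicing regulators higher were 38 to 49 and those lower 1 to 3 (38 higher without mutant 2, and 1 lower without mutant 4), and the other splicing genes higher were 23 to 27 and lower 1 to 2 (1 without mutant 2, mutant 4 or wild type 1). All genes higher were 5303 to 6111 and lower 1934 to 2392, and Iqch stayed between -1.66 and -1.60. Ptbp2, near 0 in the CPM, ranged from -0.017 (without mutant 2) to 0.038 (without mutant 1), and was also below 0 without mutant 4 (-0.0073), wild type 1 (-0.0048) and wild type 2 (-0.0050). The cause of these changes was not tested. The other settings changed no count of these by over 1.5 times. Of the splicing regulators, 24 were higher and 1 (Rbm28) was lower under all 15 settings. The share of all genes called under every setting was not computed, so these counts have no background. Under size factors alone 28.9% of splicing regulators and 27% of all genes were higher. Esrp2 and Srrm4 were higher under the 14 settings that tested them, since a minimum of 5 CPM left both out. Both met the minimum of 2.2 CPM only through the mutant libraries, so the settings do not count as support for their rise. Dropping the minimum barely changed the genes fitted, 17127 instead of 17126. Tests on counts with other tools were planned and not run. The paired ratios of genes were not tested with a library left out, since so few splits remain that the exact permutation test cannot pass the threshold. With 1 step of the values taken as 1 read, a read was at most 0.0312 CPM, and the median standard error of a splicing regulator was 0.06 on the log2 scale.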
